A study of Mus musculus with 2 samples.

Results

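The miRNAs described here are those of epidermal and hair follicle keratinocytes: mmu-miR-203, mmu-miR-205, mmu-miR-184, both arms of the miR-31 hairpin (mmu-miR-31 and mmu-miR-31*) and both arms of the miR-22 hairpin (mmu-miR-22 and mmu-miR-22*). The species prefix is left out below. They were chosen by name, as every mouse miRNA probe for these 5 hairpins on the array, mismatch controls aside. This gave 7 probes for 7 miRNAs, among 373 mouse miRNAs that could be compared. miR-22*, the other arm of the miR-22 hairpin, was included because the choice covers any arm. All 7 had a value on both arrays and a fold change in the table that the authors deposited, so no member was lost to a filter.

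miRNAs were measured in G2N2C cells, a mouse basal cell carcinoma (BCC) line. Cells were transfected either with Stealth-D3, an interfering oligonucleotide against the type 3 deiodinase D3, or with the control oligonucleotide Stealth-ctr. D3 is the enzyme that inactivates thyroid hormone and is encoded by Dio3. Both groups were grown in low calcium with 8% calcium-chelated serum and keratinocyte growth factor, and were harvested 48 h after transfection. RNA of 3 experiments was pooled for each condition, and the pair of pools was hybridised to 2 dual-colour arrays of locked nucleic acid probes. On array 1 the RNA of D3-interfered cells was in Cy3 and that of control cells in Cy5, and on array 2 the dyes were exchanged. There is thus 1 pool per condition, from a single cell line. The SDs below are technical, over both arrays, no test between conditions is possible, and precision is limited by the number of arrays. In RNA of whole cultures, fewer cells of a type and less miRNA per cell cannot be told apart.

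Skin epithelium is kept by stem cells of the basal layer and the hair follicle, whose progeny stop dividing and differentiate as they move outward, and miRNAs tune both steps. miR-203 is known in mouse skin for ending stemness in suprabasal cells by repressing p63. miR-205 is abundant in epithelial progenitors and favours their expansion through Akt signalling, and miR-184, an epithelial miRNA, counteracts miR-205 on the lipid phosphatase SHIP2 in human keratinocytes. miR-31 is known from growing hair follicles in mice and from proliferating human epidermis, and miR-22 drives mouse hair follicles from growth into regression.

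The mature sequences are shown because each probe reads 1 arm of a hairpin and because a miRNA's seed, bases 2 to 8, sets most of its target choice. The array's older names were paired with arms by the older naming rule, in which the star marks the minor arm. All 7 were matched to RefSeq entries on the mouse build GRCm38.p6. Seeds are in capitals.
miR-203: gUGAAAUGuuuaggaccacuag
miR-205: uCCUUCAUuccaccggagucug
miR-184: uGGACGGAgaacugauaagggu
miR-31: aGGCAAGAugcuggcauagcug
miR-31*: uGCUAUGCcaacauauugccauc
miR-22: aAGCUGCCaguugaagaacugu
miR-22*: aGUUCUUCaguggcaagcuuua
No seed was shared between members, and 0 other mouse mature miRNAs of the RefSeq table carried any of these 7 seeds. The members are therefore 7 separate seed classes.

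The 5 hairpins lie on 5 chromosomes. The mature miR-203 lies at chr12:112130927-112130948 on the plus strand, on the chromosome that also carries Dio3 but outside the region between Dlk1 and Dio3. Its gene Mir203 overlaps another annotated miRNA gene, Gm51289. miR-205 lies at chr1:193507503-193507524 on the minus strand, within the long noncoding host gene Mir205hg. miR-184 lies at chr9:89802263-89802284 on the minus strand, in no other annotated gene. The Mir31 hairpin, at chr4:88910557-88910662 on the minus strand, overlaps the long noncoding gene Gm49890, and the Mir22 hairpin, at chr11:75463716-75463810 on the plus strand, overlaps the long noncoding gene Mir22hg. These hairpins are shown with both mature arms in capitals, because both of their arms were on the array.
Mir31: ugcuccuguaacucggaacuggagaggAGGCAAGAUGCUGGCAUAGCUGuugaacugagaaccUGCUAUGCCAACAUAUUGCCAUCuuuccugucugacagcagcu
Mir22: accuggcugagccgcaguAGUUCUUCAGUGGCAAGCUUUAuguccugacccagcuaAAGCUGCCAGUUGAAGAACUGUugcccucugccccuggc
In Mir31 the unstarred arm comes first (miR-31, the 5p arm), while in Mir22 the star arm comes first and miR-22 is the 3p arm.

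Ratios are taken as log2, a base that is not stated for the deposited ratios. They are turned so that a positive sign lies on the side of miR-21, the mouse miRNA with the highest mean in this comparison (3.60 ± 0.73). Which dye is the numerator is not stated with the labels. With Cy5 over Cy3, positive values would mean more of a miRNA in D3-interfered cells than in control cells, and with Cy3 over Cy5 less. Only the side of a value is therefore given, that of miR-21 or the opposite one. The rule of size asked for turned ratios of like sign on both arrays and a mean of 1.5-fold or more (0.585 on the log2 scale).

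By this rule miR-31* passed on the side of miR-21 and no member passed on the opposite side. Over all 373 mouse miRNAs, 8.85% passed on the side of miR-21 and 3.22% opposite, so 1 of 7 on one side and 0 of 7 on the other are near the background. Of the 45 mouse miRNAs that passed on either side, 44 remained when only probes brighter than the median were kept. Shares over all mouse miRNAs thus understate those of bright probes, such as most of the members. The median of the 7 members was 0.35, against 0.08 over all mouse miRNAs, and 5 of 7 had a mean on the side of miR-21, against 60.1% of all. The arrays had the same sign for 3 of 7 members, against 45.3% of all mouse miRNAs.

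The deposited ratios depended on brightness, and 4 of the members were bright, with an average log2 intensity above 10. Before turning, the smoothed dye ratio was positive on both arrays for bright probes, as 1.235 and 1.702 at the brightness of miR-205, and after turning array 1 it has opposite signs. A smooth lowess trend on average intensity was therefore also removed from each array, and both sets of values are given for each member. The average intensity describes a probe's signal, not the amount of its miRNA, since probes bind with different strength. After the trend was removed miR-31* and miR-22 passed on the side of miR-21 and no member did so opposite, against 8.04% and 5.36% of all mouse miRNAs. The arrays then had the same sign for 6 of 7 members, against 51.7% of all, and the median of the members was 0.07, against 0.03.

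**Figure D1:**
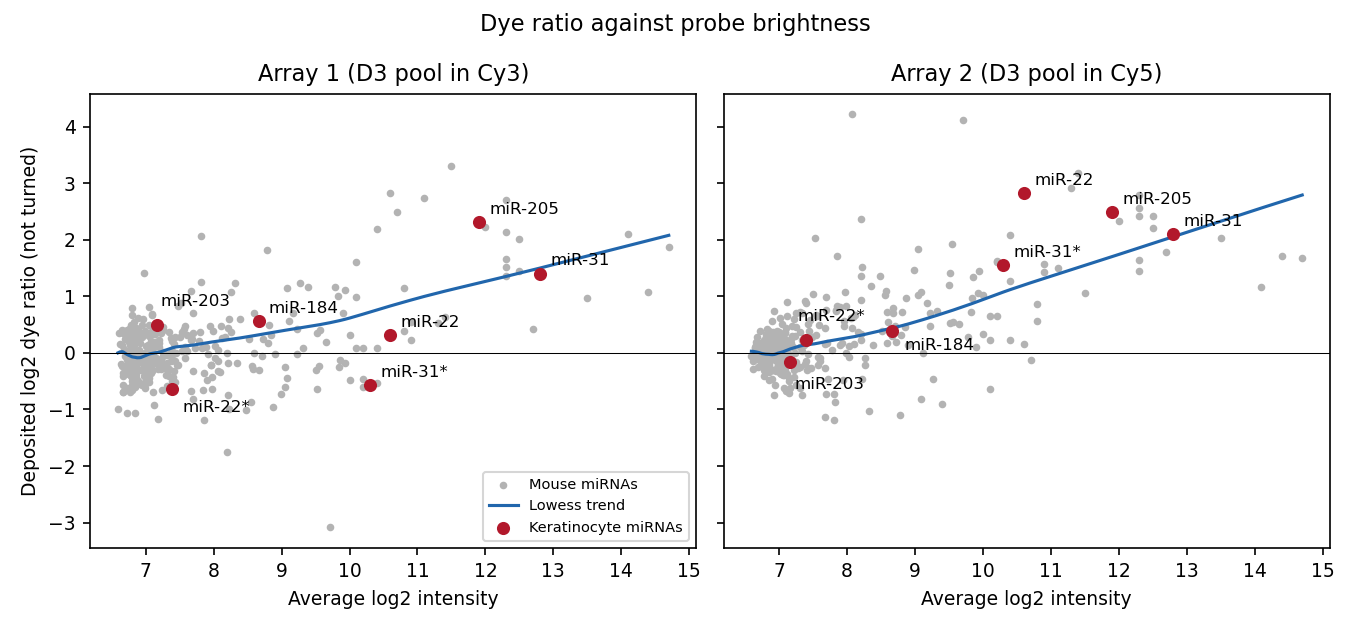
Deposited log2 dye ratio, not turned, against average log2 intensity on array 1 (left) and array 2 (right). Grey points are mouse miRNAs, the blue line is the lowess trend and red points are the 7 keratinocyte miRNAs. miR-205 lies above the line on both arrays, with ratios of 2.31 and 2.49, while miR-22 lies below it on array 1 (0.31) and above it on array 2 (2.82).

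miR-22, the hair follicle regression miRNA, had the highest mean of the 7 members. Its turned ratio was -0.31 on array 1 and 2.82 on array 2, a mean of 1.26 ± 2.22, or 2.39-fold. The arrays disagreed in sign, so it did not pass the rule as deposited. At its intensity of 10.6 the trend was 0.83 on array 1 and 1.20 on array 2. With the trend removed the arrays agreed in sign, with 0.52 and 1.62, and the mean was 1.07 ± 0.78, a 2.10-fold difference that passed the rule. In the authors' deposited table miR-22 has a log2 fold change of 0.93, or 1.91-fold. It is the single member at 1.5-fold there, on the side of miR-21, where 3.75% of the mouse miRNAs stand, against 5.63% on the opposite side. The size of the difference was thus above 1.5-fold in each of these 3 sets of values, while its sign on array 1 depended on the trend.

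miR-22*, the other arm, was dim, with an average intensity of 7.39. The brightest probe to which the authors' table gives no fold change had 6.99. The turned ratios of miR-22* were 0.64 on array 1 and 0.23 on array 2, a mean of 0.43 ± 0.29, which did not reach 1.5-fold. Without the trend they were 0.73 and 0.09, a mean of 0.41 ± 0.45, no larger than its technical SD, and the authors' deposited table gives 0.33. Both arms of miR-22 thus had positive means in all 3 sets of values. The star arm lay below miR-22 by a mean difference of -0.66 ± 1.23 with the trend removed (star minus unstarred), which does not separate the arms beyond the technical spread.

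miR-31*, the minor arm of the miR-31 hairpin, passed the rule with and without the trend. Its turned ratios were 0.57 on array 1 and 1.55 on array 2, a mean of 1.06 ± 0.69, or 2.09-fold. Its average intensity was 10.3, and with the trend removed the arrays read 1.30 and 0.48, a mean of 0.89 ± 0.58, or 1.85-fold. Which array was higher changed with the trend, but both stayed positive. The authors' deposited table gives miR-31* a log2 fold change of 0.55, or 1.46-fold, just under the 1.5-fold mark.

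miR-31 itself, the major arm, was the brightest member, with an average intensity of 12.8. Counting its own probe, 11 probes of all species on the array were as bright or brighter. The turned ratios of miR-31 were -1.40 on array 1 and 2.09 on array 2, a mean of 0.35 ± 2.47. The values before turning, 1.40 and 2.09, lay close to the trend at this brightness, which was 1.499 and 2.055. With the trend removed the arrays therefore read 0.10 and 0.04, a mean of 0.07 ± 0.04, while the authors' deposited table gives 0.39. The difference between the arms (star minus unstarred) was 0.82 ± 0.54 with the trend removed, positive on both arrays at 1.20 and 0.44. As deposited it was 0.72 ± 1.78, with 1.97 on array 1 and -0.54 on array 2. The authors' deposited table has both arms on the side of miR-21. The arms differed in brightness by 2.50 on the log2 scale. At the bright end, where few probes lie, the trend was set largely by dimmer probes. The part of brightness or of the trend in the difference between the arms was not tested.

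**Figure D2:**
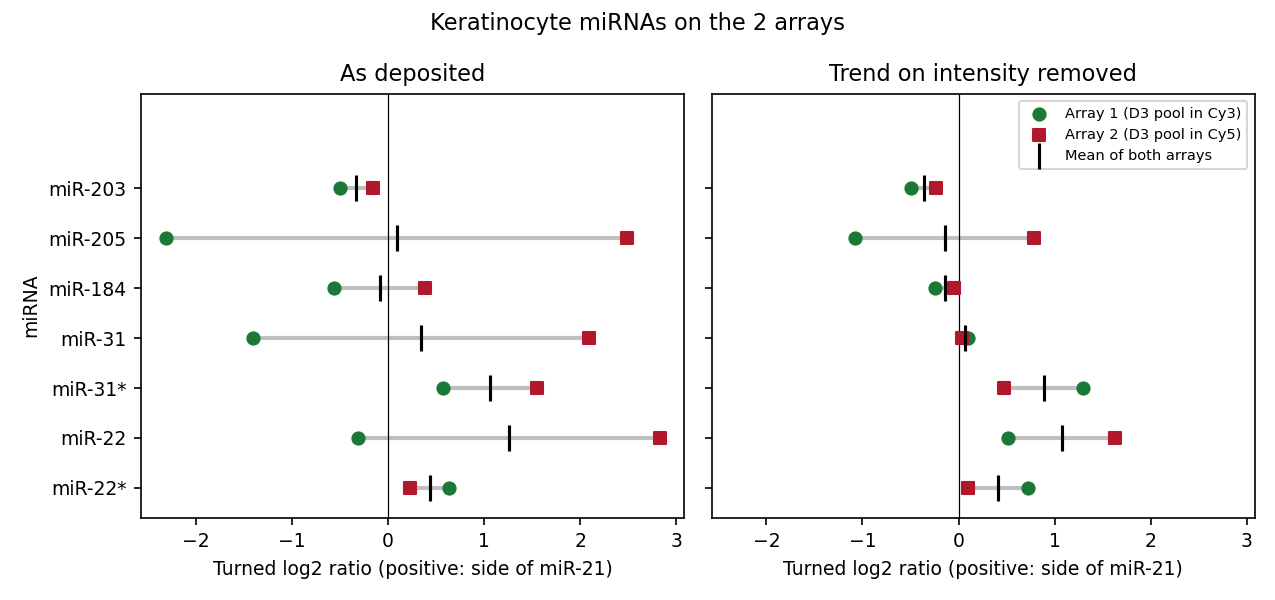
Turned log2 ratio of the 7 miRNAs on array 1 (green circles) and array 2 (red squares), with their mean (black bars), as deposited (left) and with the trend removed (right). The arrays of miR-31 are at -1.40 and 2.09 as deposited and at 0.10 and 0.04 with the trend removed, while those of miR-31* are positive in both panels.

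miR-203, the differentiation miRNA, lay on the opposite side on both arrays but did not reach 1.5-fold. Its turned ratios were -0.50 on array 1 and -0.16 on array 2, a mean of -0.33 ± 0.24, which corresponds to 1.26-fold. The trend was near 0 at its intensity of 7.16, and its removal left -0.49 and -0.23, a mean of -0.36 ± 0.19. The authors' deposited table gives -0.32. The value of miR-203 thus hardly depended on the trend, but its probe was the dimmest of the members. Counting miR-203 itself, 187 of 373 mouse miRNAs were as bright or brighter.

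miR-205, the progenitor miRNA, gave the arrays that lay farthest apart among the members. Its turned ratios were -2.31 on array 1 and 2.49 on array 2, and the mean was 0.09 ± 3.39. Before turning both ratios were strongly positive, so the part that followed the dyes, 2.40, was far above the 0.09 that followed the pools. Even with the trend removed the arrays differed in sign, with -1.08 and 0.79, and the mean was -0.15 ± 1.32. The authors' deposited table gives -0.20. The arrays therefore do not tell on which side miR-205 lay, and a difference between the pools of the size found for miR-22 would have been within its technical spread.

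miR-184, the partner of miR-205 on SHIP2, had turned ratios of -0.56 on array 1 and 0.39 on array 2, a mean of -0.09 ± 0.67. Its average intensity was 8.66. Once the trend was removed both arrays were below 0, with -0.24 and -0.05, and the mean was -0.15 ± 0.13; the authors' deposited table gives -0.33. It did not pass the rule in any of the 3 sets of values.

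Set side by side, the 4 arms of miR-31 and miR-22 had positive values and miR-203, miR-205 and miR-184 negative values both after the trend was removed and in the authors' deposited table. Over all mouse miRNAs 55.0% were positive after removal of the trend and 45.3% in the authors' deposited table, so 4 of 7 is near the background. Both sets come from the same 2 arrays, so the second is no repeat of the first, and for miR-205 the arrays themselves disagreed on the side. As deposited, miR-205 stood with the first 4, at 0.09. The mean exceeded the technical SD for miR-203, miR-31* and miR-22* as deposited, where 35.1% of all mouse miRNAs did so. With the trend removed it did so for miR-203, miR-184, miR-31, miR-31* and miR-22, against 41.0% of all.

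Other thresholds and single arrays gave other counts. At a lower mark of 0.32 on the log2 scale, miR-31* and miR-22* passed on the side of miR-21, where 15.8% of all mouse miRNAs did, and miR-203 passed on the opposite side, where 6.17% did. At 2-fold, miR-31* alone passed, against 4.02% of all on its side and 1.88% on the other. When like signs were not asked for, miR-31* and miR-22 passed, against 10.7% and 4.83% of all on each side. Read alone, array 1 had miR-205 and miR-31 at 1.5-fold on the opposite side (13.9% of all) and miR-22* on the side of miR-21 (8.85%). Array 2 had miR-205, miR-31, miR-31* and miR-22 on the side of miR-21 (23.3% of all) and none on the other (4.56%). miR-205 and miR-31, the brightest members, thus changed sides with the array. A wider trend span of 0.5 left miR-31* and miR-22 past the rule, against 8.58% and 5.09% of all.

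**Figure D3:**
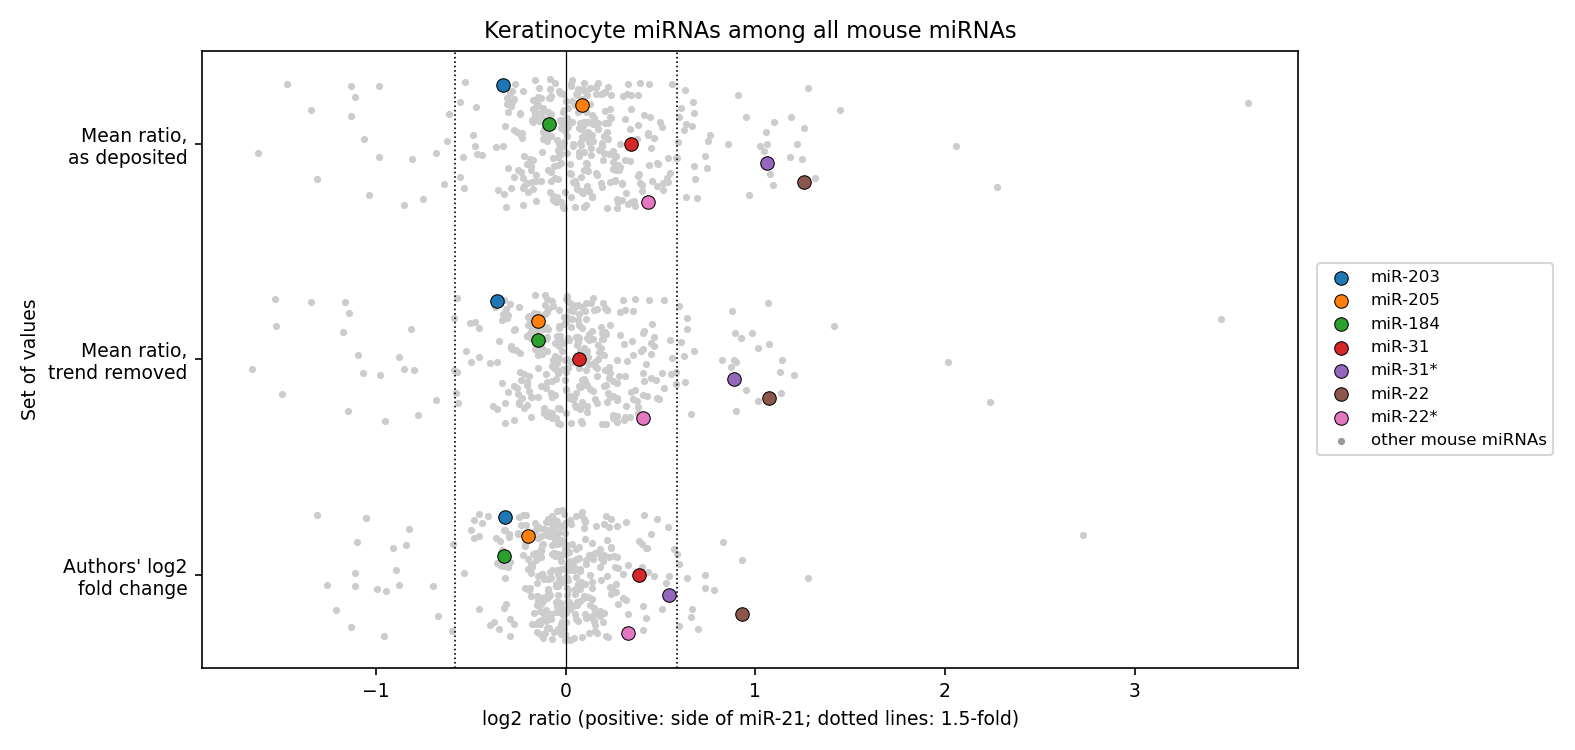
log2 ratio of the 7 miRNAs (coloured) among the 373 mouse miRNAs (grey) as deposited, after removal of the trend, and as the authors' deposited table gives it; height within a row has no meaning and dotted lines mark 1.5-fold. miR-22 is rightmost of the 7 in each row (1.26, 1.07 and 0.93), and miR-203, with -0.33, -0.36 and -0.32, is leftmost in the first 2 rows; miR-184, with -0.33, lies just beyond it in the third.

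For each member, the next mouse miRNA at or above its brightness and the next below were looked up, with all miRNAs tied at that brightness. Next above miR-205 stood let-7b, a differentiation miRNA, with turned ratios of -2.23 and 2.34, nearly those of miR-205. Next below, at 11.5, stood miR-691, with -3.31 and 1.05. Both thus showed gaps between the arrays nearly as wide as that of miR-205. miR-801, at the 10.6 of miR-22, lay on the opposite side with the trend removed, at -1.53 ± 0.68. The 3 miRNAs tied at 10.4, next below miR-22 and next above miR-31*, had 1.13 (miR-30a), 0.41 (let-7i) and -1.16 (miR-689), trend removed. miRNAs close to miR-22 in brightness thus lay on both sides. The 3 tied at 10.2, next below miR-31*, had 0.93 (miR-26a), 0.87 (miR-222) and 0.10 (miR-27a), trend removed, against 0.89 for miR-31*. For miR-31 the next probes were farther off on the bright side, with miR-494 at 13.5 and a value of 0.22 ± 0.73, and miR-711 at 12.7 with 0.41 ± 0.90, trend removed. Those of miR-184 were miR-700 (-0.20) and miR-107 (0.21). Those of miR-203 were miR-190b (-0.29) and miR-465a-5p (-0.35), near the -0.36 of miR-203, but with arrays of opposite sign. The 6 around miR-22*, from miR-299* to miR-484, ran from -0.11 to 0.41, the value of miR-22* itself.

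Other miRNAs of the epidermis were counted by the same rule. Of 11 other epidermis-enriched miRNAs (the miR-200 family, which holds epithelial identity, the miR-183 cluster, miR-17, miR-19b and miR-20a), 3 passed on the opposite side and none on miR-21's side, both as deposited and with the trend removed. Over all mouse miRNAs 3.22% and 5.36% passed opposite, and 8.85% and 8.04% on miR-21's side. All 3, miR-200b, miR-200c and miR-141, are of the miR-200 family, and none of the others in the list passed. The 11 were brighter than the median of 7.16, at 8.71 to 10.8, and shares over all mouse miRNAs understate those of bright probes. Of these 11, 4 reach 1.5-fold opposite in the authors' deposited table and none on miR-21's side. Over all mouse miRNAs 5.63% do so opposite and 3.75% on miR-21's side. The 4 are the same 3 and miR-200a. The median of the 11 was -0.03 as deposited and -0.09 with the trend removed, with miR-141 lowest at -1.15 and miR-183 highest at 0.20, trend removed. The list of other miRNAs of keratinocyte differentiation and stem cells is counted without miR-21, whose side is fixed by the turning. Of the remaining 7, the deposited ratios put miR-378 past the rule's mark on the side of miR-21, against 8.85% of all, and miR-34a opposite, against 3.22% of all. With the trend removed 3 passed on the side of miR-21, against 8.04% of all: miR-27b, miR-125b-5p and miR-378. miR-34a, a p53 target, stayed opposite, with -0.95 ± 0.21, trend removed, against 5.36% of all on that side. miR-27b and miR-125b-5p resembled miR-22 in their arrays. As deposited miR-27b had -0.63 and 3.18 and miR-125b-5p -0.53 and 2.91; with the trend removed both were positive on both arrays, with 0.46 and 1.67, and 0.53 and 1.44. These 2 were picked out after their values were seen.

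Markers of cells other than keratinocytes were mostly dim. The 2 melanocyte miRNAs, miR-211 and miR-204, had 6.79 and 6.96, within the range of probes without a fold change. The 5 blood, 2 endothelial and 3 muscle miRNAs ran from 6.67 to 8.12, with 5 of these 10 above 6.99, and miR-451 had no fold change. None of these 10 passed the rule. Over all mouse miRNAs 12.1% passed on either side as deposited and 13.4% with the trend removed, so none of 10 is near the background. Of 4 fibroblast and dermal miRNAs matched by name, miR-143 passed on the side of miR-21, with 2.02 ± 0.05, trend removed. It had an average intensity of 8.20. Over all mouse miRNAs 8.04% passed on that side with the trend removed and 8.85% as deposited. The other 3 fibroblast and dermal miRNAs ran from -0.01 to 0.21, trend removed. Among them, miR-214 is also in the list of keratinocyte differentiation and stem cells above, so it is counted in both. The members all lay above 6.99, from miR-203 with 7.16 to miR-31 with 12.8, so every member's probe was brighter than any probe without a fold change. The part of other cells in the values of the members was not tested.

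**Figure D4:**
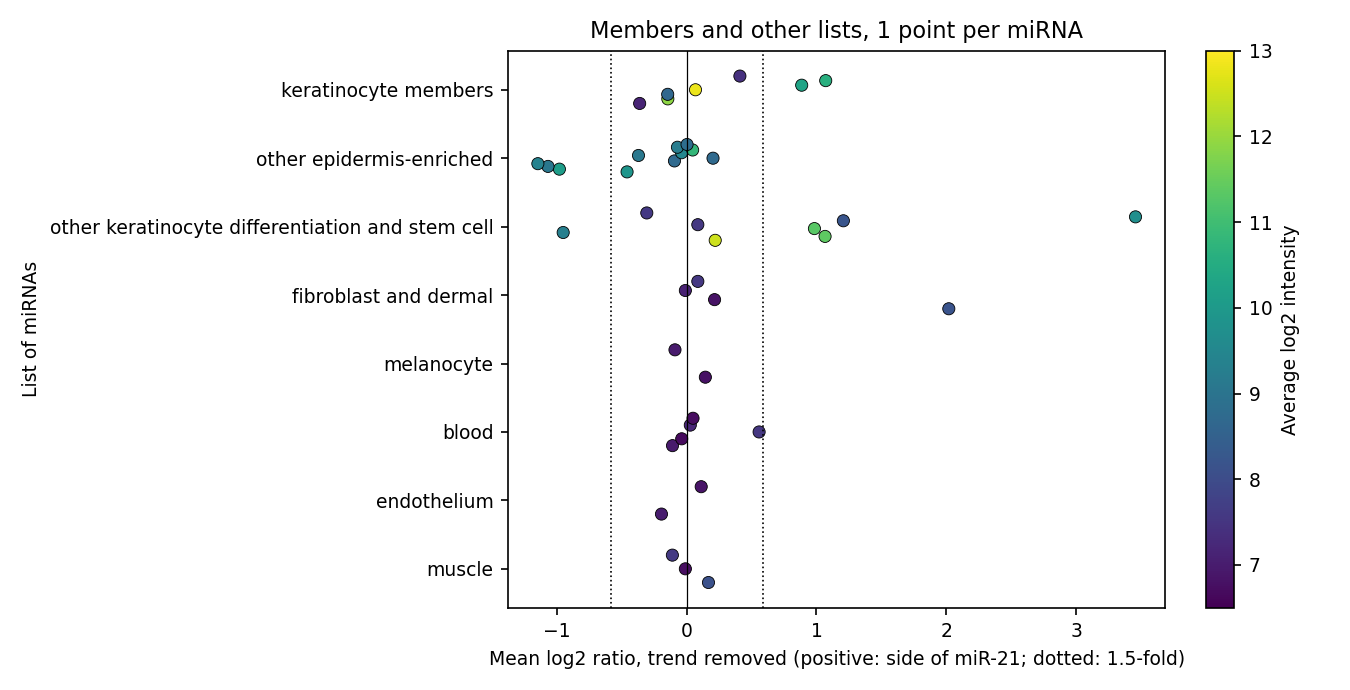
Mean log2 ratio with the trend removed for the 7 keratinocyte miRNAs and for the other lists, 1 point per miRNA, coloured by average log2 intensity; dotted lines mark 1.5-fold. miR-31* and miR-22 lie beyond the right line at 0.89 and 1.07. Beyond the left line lie 3 of the other epidermis-enriched miRNAs, all of the miR-200 family. The points of the melanocyte, blood, endothelium and muscle lists lie between the lines.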

How the data were processed

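Per the labels' protocols, total RNA was extracted with Trizol, cleaned on a column and labelled with a kit for locked nucleic acid miRNA arrays. The authors deposited a table of 2244 features with a processed log dye ratio for each array. The sources used here do not give the log base, centring or numerator dye of this ratio. The array medians were 0.039 and 0.04. log2 was taken because the mean turned ratio followed the deposited log2 fold change with a slope of 1.24 over 155 probes at intensities from 9 to 12. Over all 1677 probes with a fold change the correlation was 0.83. A slope other than 1 does not fix the base, so log2 is an assumption. The fold values of the ratios as deposited and with the trend removed rest on it. Per the file headers, a second table of 2101 probes gives an average log2 intensity for each, and a log2 fold change, p-value and signed fold change for 1677 of them; its unadjusted p-values, whose replicates are not stated, were not used. Its signed fold, a score below 0 where the log2 value is, is quoted as the authors deposited it.

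The sign of array 1 was turned, and the mean of the arrays counted as 1 replicate. Probes of the same miRNA were averaged over 376 mouse probes, and 46 without a fold change were left out. Lowess used a span of 0.3 over all 2101 probes, with 0.2 and 0.5 added after seeing the data. The members, lists and named miRNAs (all members, their neighbours in average intensity, miR-21, the extremes of each list and, after their values were seen, miR-378, miR-27b and miR-125b-5p, which passed the rule) were chosen with earlier results of these data known. Lists were matched by exact name, which left miR-199a-3p and miR-199b unmatched. Python 3.11.15, NumPy 2.4.6, pandas 2.3.3, statsmodels 0.14.6 and matplotlib 3.10.9 were used.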

Additional observations from a re-analysis of the deposited data

How the results depend on the processing

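Of the 7 members, 1 passed the rule of size as deposited. This was 2 with the trend removed at a span of 0.3, 0.2 or 0.5, 2 without the demand on signs, and 3 at a mark of 0.32 on the log2 scale (miR-203, miR-31* and miR-22*). On the arrays alone it was 3 (array 1) and 4 (array 2), and it stayed 1 with median-centred arrays, at 2-fold and in the authors' deposited table, where the member is miR-22 and not miR-31*. The members' median of 0.35 became -0.50 on array 1 and 1.55 on array 2, and 0.07 with the trend removed (0.08 at a span of 0.5). On single arrays miR-205 and miR-31 passed 1.5-fold on opposite sides. Over all mouse miRNAs the count of 45 became 82 at that lower mark, 22 at 2-fold, and 85 and 104 on arrays 1 and 2. With only probes brighter than the median it was 44, so nearly all of the 45 came from the brighter probes. Every other count of mouse miRNAs was within 1.5 times of 45. Each member's value with the trend removed, with median-centred arrays and in the authors' deposited table lay within 1 technical SD of its mean as deposited, with SDs from 0.24 to 3.39. For bright members this SD includes the dye trend, so it is a weak check. At intensities of 9 or more the median SD was 1.10 as deposited and 0.44 with the trend removed. By the SD with the trend removed, miR-31 at 0.07 ± 0.04 did not reach its 0.35 as deposited or the authors' 0.39. Nor did miR-184 at -0.15 ± 0.13 reach the authors' -0.33, while the other members stayed within theirs. A single array cannot fall outside the SD as deposited, since that SD comes from the same 2 arrays. No paired analysis was possible because the arrays share their 2 pools. Only 27 probes had an intensity of 12 or more. Each local fit of the trend drew on a share of 0.3 of the 2101 probes, so its bright end was set largely by dimmer probes.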
